A study of Mus musculus with 8 samples.

Results

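The genes described here encode the proteins of the cytosolic ribosome. They are the symbols made of Rpl or Rps, a number and at most 2 further characters of a, x, y, l or a digit, together with the stalk genes Rplp0, Rplp1 and Rplp2 and with Rpsa, and they number 89 of 52459 symbols in the deposited count table. Of these, 53 belong to the large and 36 to the small subunit. The annotation lists 84 as protein-coding and 5, Rpl6l, Rps12l1, Rps3a2, Rps3a3 and Rps4l, as pseudogenes, although their symbols meet the rule. Symbols with -ps were left out.

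RNA was sequenced from nodules of lung tumours of mice, in 8 libraries, 2 for each of 4 treatments: JQ1 with anti-PD-1 (the combination), JQ1 alone, anti-PD-1 alone and vehicle. JQ1 is a small-molecule inhibitor of the BET bromodomain proteins, which bind acetylated histones, and anti-PD-1 is an antibody against an inhibitory receptor of T cells. The mice of all 4 groups, vehicle included, were of 1 genetically engineered tumour model and carry its alleles, on a mixed strain background. No label names the driver of recombination, the doses, the length of treatment or the age of the mice. Libraries were made from frozen tissue with probes that capture coding regions (TruSeq RNA Access), so a member is measured only as far as the probes reach it.

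Ribosomal proteins are made in equal numbers, since each ribosome takes 1 copy of nearly every one, and their mRNAs are among the most abundant of a growing cell. Most of these mRNAs start with a run of C and T bases, the terminal oligopyrimidine (TOP) tract, through which mTOR and LARP1 set their translation. Transcription of the genes is raised by MYC, and BET proteins are co-activators of many highly transcribed genes.

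The promoters of the 5 members that passed the test for JQ1 and have an entry in RefSeq's promoter table (GRCm38.p6) are printed because the results below turn on these genes. Each runs from 250 bases before to 50 after the annotated start, 5′ to 3′ on the strand of the gene. Capitals mark the longest run of C and T between 25 bases before and 50 bases after the start, and any CCGGAAG on either strand, the core of an ETS-type site. They lie at chrX:102189342-102189641 (minus strand) for Rps4x, chr9:120127516-120127815 (plus) for Rpsa, chr4:136053344-136053643 (minus) for Rpl11, chr1:72711010-72711309 (plus) for Rpl37a and chr5:121204251-121204550 (plus) for Rpl6.
Rps4x: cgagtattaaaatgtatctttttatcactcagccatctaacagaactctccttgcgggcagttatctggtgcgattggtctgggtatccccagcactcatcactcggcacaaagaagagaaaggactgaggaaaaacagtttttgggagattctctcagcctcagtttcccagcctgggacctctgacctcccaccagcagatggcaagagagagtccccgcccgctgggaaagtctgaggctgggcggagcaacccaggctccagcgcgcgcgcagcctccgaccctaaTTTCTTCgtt
Rpsa: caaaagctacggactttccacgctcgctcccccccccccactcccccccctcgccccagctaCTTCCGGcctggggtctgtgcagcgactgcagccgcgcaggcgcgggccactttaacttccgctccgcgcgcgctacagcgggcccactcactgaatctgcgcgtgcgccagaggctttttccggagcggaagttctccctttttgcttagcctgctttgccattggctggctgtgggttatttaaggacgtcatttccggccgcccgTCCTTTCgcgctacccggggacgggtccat
Rpl11: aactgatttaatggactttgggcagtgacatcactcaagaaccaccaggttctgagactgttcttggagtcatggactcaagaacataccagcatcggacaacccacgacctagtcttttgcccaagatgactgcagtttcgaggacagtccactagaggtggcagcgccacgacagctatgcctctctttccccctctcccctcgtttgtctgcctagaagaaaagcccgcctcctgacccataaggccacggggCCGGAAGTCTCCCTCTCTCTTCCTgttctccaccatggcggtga
Rpl37a: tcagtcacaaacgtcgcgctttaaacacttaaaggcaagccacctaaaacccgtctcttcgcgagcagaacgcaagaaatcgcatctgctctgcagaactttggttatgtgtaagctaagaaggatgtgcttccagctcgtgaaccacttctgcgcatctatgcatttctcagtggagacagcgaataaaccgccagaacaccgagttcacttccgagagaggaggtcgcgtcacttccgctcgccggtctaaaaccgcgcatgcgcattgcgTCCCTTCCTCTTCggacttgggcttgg
Rpl6: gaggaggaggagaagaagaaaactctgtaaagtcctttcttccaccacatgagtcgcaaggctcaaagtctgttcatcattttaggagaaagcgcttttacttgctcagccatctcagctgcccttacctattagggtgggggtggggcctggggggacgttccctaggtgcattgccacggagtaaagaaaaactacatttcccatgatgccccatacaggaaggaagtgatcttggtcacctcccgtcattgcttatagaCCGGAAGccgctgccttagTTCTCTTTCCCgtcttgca
The run of C and T is TCTCCCTCTCTCTTCCT, 17 bases, in Rpl11, TCCCTTCCTCTTC, 13 bases, in Rpl37a and TTCTCTTTCCC, 11 bases, in Rpl6, and it has 7 bases in Rps4x and in Rpsa. Counted from the annotated start, the runs begin at base 14 in Rpl11, 24 in Rpl37a, 32 in Rpl6, 41 in Rps4x and 21 in Rpsa. Whether they are the TOP tracts of these mRNAs was not tested. CCGGAAG is present in Rpsa, Rpl11 and Rpl6 and was not found in these letters of Rps4x and Rpl37a. Rpl6 was the only one of the 5 whose mRNA was higher with JQ1. Whether these features bear on the change with JQ1 was not tested.

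The table held 76 promoter windows of 64 members. The longest run of C and T near the start had a median of 10 bases in these windows, against 6 over all 32851 windows of the same length, and was 8 bases or longer in 68.42% of the members' windows, against 27.16% of all. CCGGAAG was found in 35.53% of the members' windows, against 8.858% of all. CACGTG, the E-box that MYC binds (a palindrome), was found in 10.53%, against 7.15% of all. A match of letters is not a bound site.

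Total counts per library ranged from 2719816 in combination replicate 1 to 15224108 in a vehicle library. Ribosomal RNA genes took 46.0% and 52.5% of the counts with the combination, 35.0% and 27.7% with JQ1, 23.5% and 24.2% with anti-PD-1, and 23.7% and 21.8% with vehicle. This share thus differed by treatment. With the ribosomal RNA genes removed from the fit, all 15 calls of members (adjusted p under 0.05) remained. That fit has no term for the share itself, whose part in the results below was not tested. By Xist and Y-linked counts 1 library each of the combination, JQ1 and anti-PD-1 groups is from a female and both vehicle libraries are from males. The 5 markers of alveolar type 2 cells, which include Sftpc and Nkx2-1, were all detected in each group and summed to between 4607 and 8662 CPM (counts scaled to a common library total) over the 8 libraries. Within this sum Nkx2-1 was lower in the 4 libraries with JQ1 (402 to 1203 CPM) than in those without it (1560 to 2124 CPM), and Napsa was higher (119 to 211 CPM, against 46.8 to 88.4 CPM). Markers of other cells moved with the treatments: the 3 airway markers (Scgb1a1, Foxj1, Muc5b) summed to 264 to 547 CPM with the combination, 168 to 433 with JQ1, 44.0 to 107 with anti-PD-1 and 8.49 to 29.6 with vehicle. The 3 fibroblast markers (Col1a1, Col3a1, Dcn) summed to 288 to 311 CPM with the combination, 496 to 617 with JQ1, 833 to 1378 with anti-PD-1 and 868 to 1128 with vehicle. The 3 striated muscle markers (Myh6, Actc1, Tnnt2) summed to 65.9 to 138 CPM with the combination, 247 to 327 with JQ1, 309 to 539 with anti-PD-1 and 382 to 529 with vehicle. The airway sums were thus higher, and the fibroblast and muscle sums lower, in each of the 4 libraries with JQ1 than in vehicle. Muc5b overlapped, with 19.1 CPM in combination replicate 2 and 23.9 CPM in vehicle replicate 1. Scgb1a1 was higher in these 4 libraries (22.5 to 305 CPM, against 3.50 and 5.35 CPM in vehicle). So was Foxj1, at low levels (0.436 to 6.08 CPM, against 0.0574 and 0.305 CPM). Col1a1 carried the fibroblast sum, with 250.4 to 559.5 CPM in these 4 libraries, against 821 to 1088 CPM in vehicle, while Dcn was higher in them (3.31 to 12.9 CPM, against 1.43 to 1.99 CPM in vehicle) and Col3a1 overlapped. Myh6 carried the muscle sum (380.1 to 524 CPM in vehicle), while Tnnt2 (1.32 to 4.05 CPM in vehicle) and Actc1 (0.0 and 0.861 CPM) overlapped. The fall of this sum is thus that of Myh6 alone. The 3 neutrophil markers (S100a8, S100a9, Ly6g) summed to 2.31 to 6.73 CPM with the combination and 1.83 to 5.56 with JQ1. They summed to 0.282 to 0.629 CPM with anti-PD-1 and 0.305 to 0.459 with vehicle. Ly6g was at 0.0 CPM in every library but combination replicate 2 (0.165 CPM). S100a9 overlapped between JQ1 (0.262 CPM in replicate 2) and anti-PD-1 (0.419 CPM in replicate 1). The 3 endothelial markers summed to 85.0 to 90.1 CPM with the combination, 61.8 to 91.3 with JQ1, 55.8 to 66.8 with anti-PD-1 and 35.3 to 51.8 with vehicle. The part of all these markers in the results below was not tested. The 5 T cell markers summed to at most 4.19 CPM and the 3 B cell markers to at most 0.978 CPM in each library, and in the combination 2 of the 5 (Cd3d, Cd8a) and all 3 B cell markers were at 0. In such bulk tissue, fewer cells of a type and less RNA per cell cannot be told apart.

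Ribosomal protein genes took 1.54% and 1.93% of all protein-coding counts with the combination, 2.30% and 1.92% with JQ1, 2.33% and 2.84% with anti-PD-1, and 2.64% and 2.03% with vehicle. Both combination libraries lay below both vehicle libraries, while the JQ1 libraries overlapped vehicle and so did the anti-PD-1 libraries. Large-subunit genes alone took 0.956% and 1.23% with the combination, 1.38% and 1.19% with JQ1, 1.38% and 1.74% with anti-PD-1, and 1.65% and 1.27% with vehicle. Small-subunit genes took 0.585% and 0.704% with the combination, 0.919% and 0.731% with JQ1, 0.952% and 1.10% with anti-PD-1, and 0.993% and 0.763% with vehicle. The order of the libraries was the same in both subunits, except that combination replicate 2 and JQ1 replicate 2 changed places. The ratio of large- to small-subunit CPM stayed between 1.45 (anti-PD-1 replicate 1) and 1.75 (combination replicate 2) in the 8 libraries, and the 2 vehicle libraries had 1.66 each.

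**Figure D1:**
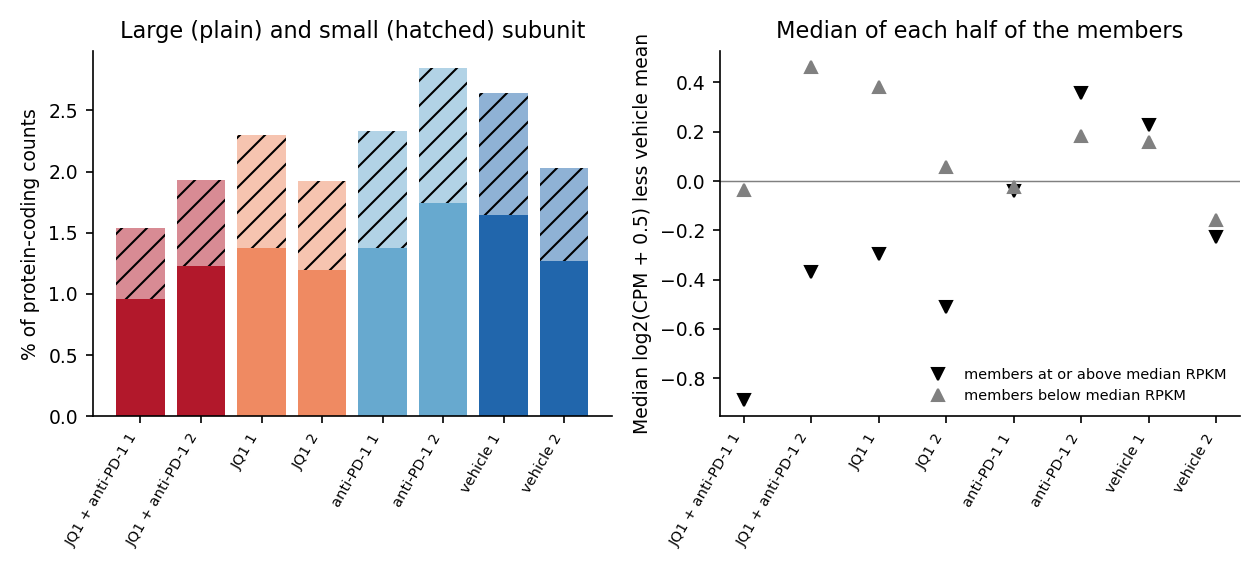
Left, share of protein-coding counts (%, bars from 0) taken by large-subunit (plain) and small-subunit (hatched) genes in each of the 8 libraries; right, the median over members of the difference in log2(CPM + 0.5) from the vehicle mean, for the 42 members at or above the median RPKM and the 41 below it. The 4 libraries with JQ1 have the members of high level between -0.89 and -0.30, and those without JQ1 have them between -0.23 and 0.36.

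Measured levels differed widely between members. Per kilobase of transcript (RPKM, mean of the 8 libraries), Rps27 was highest at 1626, followed by Rpl19 at 1444, Rpl32 at 1273, Rps15 at 998 and Rps4x at 811. The lowest tested members were Rps3a2 at 1.15, Rpl24 at 1.61, Rpl36al at 1.72, Rps4l at 1.79 and Rpl13a at 3.15. Rpl24 and Rpl13a belong to the standard 60S subunit, and whether the probes reach their mRNAs as well as those of other members was not tested. The 10 members with the most counts, led by Rpl32, Rpl19, Rps4x, Rpsa and Rps27, held 47.6% of all member counts.

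A test was possible for 83 members, 49 of the large and 34 of the small subunit. The other 6 had too few counts: Rpl10l and Rps12l1 had 0 of 81677522 counts, which allows up to 0.0367 CPM, Rpl39l had 1 count, Rpl6l 11, Rpl3l 13 and Rps3a3 61, and 41 of the 61 were in combination replicate 1. Among pairs of near copies, the copy known from testis or muscle (Rpl10l, Rpl39l and Rpl3l) thus had 13 counts or fewer. Rpl10 had 154, Rpl39 50.2 and Rpl3 129 RPKM. Whether the probes reach both copies of a pair equally, in these pairs and those that follow, was not tested. Rpl22l1, a paralog of Rpl22, had 29.7 RPKM, against 12.3 for Rpl22. Rps27l, a p53-inducible paralog, had 7.04 RPKM, against 1626 for Rps27, and Rpl7l1 had 13.8, against 116 for Rpl7. Ribosomal protein genes have many processed pseudogenes, and no label says how reads that match both a gene and a copy were counted. The -ps symbols held 0.968% to 1.68% as many counts as the members in each library.

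JQ1 was compared with its absence over both backgrounds, the combination and JQ1 libraries (4) against the anti-PD-1 and vehicle libraries (4). Called means an adjusted p under 0.05 in the quasi-likelihood test of edgeR, adjusted by Benjamini-Hochberg over all 14085 genes tested. Of the 83 members, 8 fell and 1 rose. Of all genes tested, 4.05% fell and 4.22% rose. The 8 that fell were 4 of the small subunit, Rps4x and Rpsa among them, and Rpl32, Rpl11, Rpl37a and Rpl29 of the large subunit. The one that rose was Rpl6 of the large subunit.

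Rps4x, the X-linked gene of a protein of the 40S body (chrX:102184941-102189394, minus strand), had 432 and 429 CPM with the combination, 648 and 680.3 CPM with JQ1, 961 and 1190 CPM with anti-PD-1, and 1183 and 806 CPM with vehicle. All 4 libraries with JQ1 were below all 4 without it. The log2 fold change was -0.95 (SE 0.19, adjusted p = 0.0247 by edgeR). Rpsa (chr9:120127689-120132369, plus strand), the gene of the laminin receptor precursor, a protein of the 40S subunit, had 226 and 404 CPM with the combination, 497 and 414 CPM with JQ1, 939 and 747 CPM with anti-PD-1, and 819.9 and 609.9 CPM with vehicle. Its groups with and without JQ1 did not overlap either, with a log2 fold change of -1.03 (SE 0.23, adjusted p = 0.0302 by edgeR).

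Rpl32 (chr6:115805505-115808747, minus strand), the member with the most counts (8.55% of all member counts), had 549 and 688 CPM with the combination, 913 and 964 CPM with JQ1, 1139 and 1980 CPM with anti-PD-1, and 1873 and 1119 CPM with vehicle. With JQ1 it was lower in 4 of 4 libraries than in any library without JQ1, by a log2 fold change of -1.003 (SE 0.24, adjusted p = 0.0364 by edgeR). Rpl11 (chr4:136028265-136053428, minus strand), which binds the 5S RNA together with RPL5 and inhibits MDM2, had 295 and 376 CPM with the combination, 331 and 308 CPM with JQ1, 476 and 600.4 CPM with anti-PD-1, and 654 and 464 CPM with vehicle. The combination and JQ1 libraries of Rpl11 overlapped each other and lay below the rest (log2 fold change -0.74, SE 0.19, adjusted p = 0.0433 by edgeR). Its partner Rpl5 had 104 and 140.1 CPM with the combination, 92.6 and 115 CPM with JQ1, 99.7 and 117 CPM with anti-PD-1, and 123 and 99.8 CPM with vehicle. Rpl5 overlapped in all groups, with a log2 fold change of 0.039 (SE 0.19).

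Rpl37a (chr1:72711290-72713813, plus strand), a zinc-finger protein of the 60S subunit, had 187 and 300.1 CPM with the combination, 374 and 262 CPM with JQ1, 429 and 599 CPM with anti-PD-1, and 489 and 452 CPM with vehicle. The groups with and without JQ1 did not overlap, and the log2 fold change was -0.82 (SE 0.22, adjusted p = 0.0470 by edgeR). Rpl29 (chr9:106429454-106431568, plus strand), of the 60S subunit, had 27.8 and 47.0 CPM with the combination, 75.4 and 69.3 CPM with JQ1, 100.03 and 90.2 CPM with anti-PD-1, and 96.2 and 72.9 CPM with vehicle. Here the low libraries were those of the combination, and JQ1 overlapped vehicle (log2 fold change over both backgrounds -0.78, SE 0.21, adjusted p = 0.0496 by edgeR).

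Rpl6 (chr5:121204481-121209241, plus strand), of the 60S subunit, went the other way, with 42.1 and 81.1 CPM with the combination, 40.6 and 44.3 CPM with JQ1, 29.7 and 26.0 CPM with anti-PD-1, and 29.7 and 28.9 CPM with vehicle. All 4 libraries with JQ1 were above all 4 without it, most of all combination replicate 2. The log2 fold change was 0.85 (SE 0.23, adjusted p = 0.0488 by edgeR), and without combination replicate 2 it was 0.57.

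**Figure D2:**
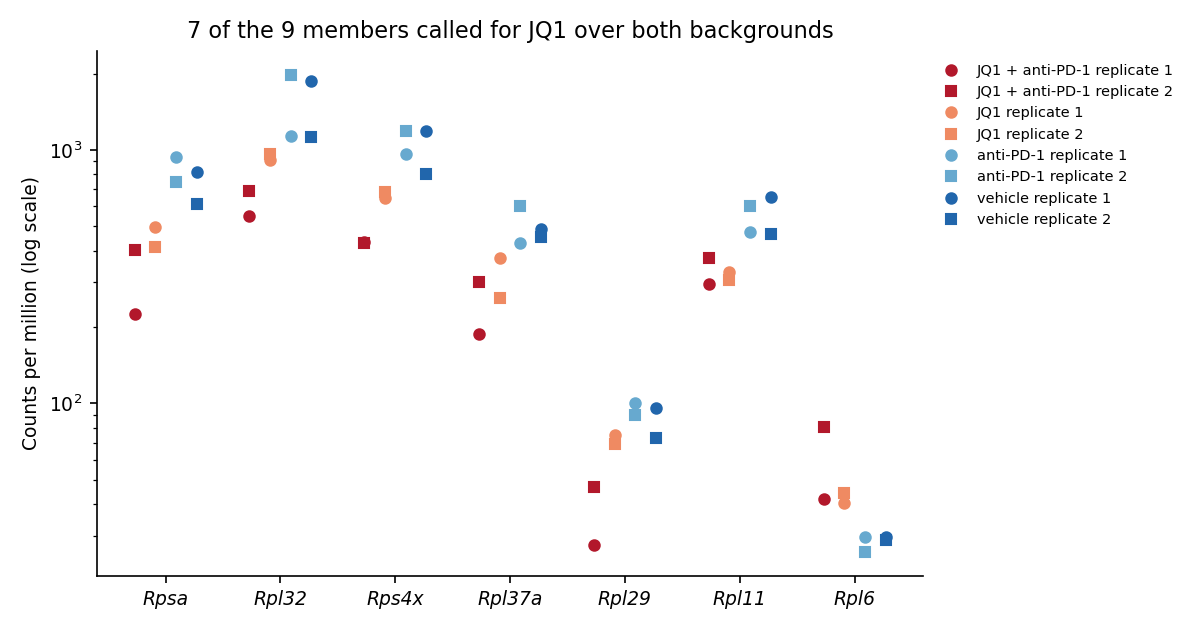
CPM (log axis) of 7 of the 9 called members in each library, circles for replicate 1 and squares for replicate 2, ordered by log2 fold change. From Rpsa to Rpl11 the combination libraries lie below those without JQ1, and so do the JQ1 libraries except for Rpl29, where they overlap vehicle. Rpl6 at the right is higher with JQ1.

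None of these calls held in every leave-one-out fit. The count of called members was 0 without JQ1 replicate 2, without either anti-PD-1 library or without either vehicle library, 2 without JQ1 replicate 1, 5 without combination replicate 2 and 9 (5 higher, 4 lower) without combination replicate 1. Calls over all genes moved in the same fits: there were 1166 with all libraries, 434 without JQ1 replicate 2, 104 and 75 without anti-PD-1 replicate 1 and 2, 20 and 13 without vehicle replicate 1 and 2, 479 without JQ1 replicate 1, 438 without combination replicate 2 and 1755 without combination replicate 1. With a term for the sex of the animal, 5 members were called (1 higher, 4 lower) and the calls of Rpl11, Rpl29, Rpl32 and Rpl37a were lost, with adjusted p from 0.0511 to 0.0717 by edgeR. The direction of each of the 9 was the same in all of these fits: Rps4x, for example, stayed between -1.08 and -0.80 on the log2 scale over all alternatives, and Rpl6 between 0.57 and 1.04. The split of calls moved with the scaling: it was 1 higher and 8 lower with TMM factors (trimmed mean of M-values), 0 higher and 12 lower with RLE size factors (relative log expression), and 6 higher and 5 lower with TMM factors over genes of a mean count of at least 50.

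By overlap alone, 17 members lay lower in all 4 libraries with JQ1 than in all 4 without, and 6 lay higher (Rpl35a, Rpl6, Rpl7a, Rps13, Rps27l and Rps29). Of all genes tested, 9.35% lay lower and 10.2% higher in this way. Of the 6 that lay higher, only Rpl6 passed the test. Rps27l had 2.95 and 5.93 CPM with the combination, 5.77 and 4.53 CPM with JQ1, 2.31 and 2.44 CPM with anti-PD-1, and 2.06 and 2.12 CPM with vehicle (log2 fold change 1.13, SE 0.33, adjusted p = 0.0594 by edgeR). Its paralog Rps27 had 436 and 433 CPM with the combination, 459.8 and 427 CPM with JQ1, 750.1 and 838 CPM with anti-PD-1, and 661 and 482 CPM with vehicle (log2 fold change -0.62, SE 0.18, adjusted p = 0.0560 by edgeR). Neither passed the test, and the groups with and without JQ1 did not overlap in either, with opposite signs.

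Over all 83 tested members the median log2 fold change for JQ1 was -0.28, beside 0.060 over all genes tested, with 27 members positive and 56 negative. When 1 library was left out it ranged from -0.47 (combination replicate 2) to -0.15 (combination replicate 1). The median was -0.35 in the large subunit (14 of 49 positive) and -0.11 in the small subunit (13 of 34 positive). With 1 library left out the large-subunit median ranged from -0.57 to -0.25, and without anti-PD-1 replicate 2 the small-subunit median was 0.032.

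What separated the members more than the subunit was their level in RPKM. This measure depends on how far the probes reach a member as well as on the amount of its mRNA. The parts of these were not told apart, here or in the comparisons by level below. Of the 42 members at or above the median RPKM of 94.3, 41 had a negative log2 fold change for JQ1 and the median was -0.58. All 8 members that fell are among them. Of the 41 members below it, 26 had a positive one and the median was 0.19, and Rpl6 is among these. The split held in each subunit: the median was -0.58 for 26 large-subunit members of high level, against 0.10 for 23 of low level, and -0.58 for 16 small-subunit members of high level, against 0.28 for 18 of low level. Leaving out each library in turn moved the median of the high members between -0.68 and -0.45 and that of the low members between 0.042 and 0.26. The last high member was Rpl28 at 94.3 RPKM, with a log2 fold change of -0.39 (SE 0.22).

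Across the 83 members, Spearman's rho between RPKM and log2 fold change for JQ1 was -0.79 (Pearson's r with log2 RPKM -0.67). It was -0.73 over the 49 large-subunit and -0.85 over the 34 small-subunit members. These points share the 8 libraries, their scaling factors and the counts behind both axes, and members are not independent. Over all 12405 protein-coding genes tested the same rho was -0.33.

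**Figure D3:**
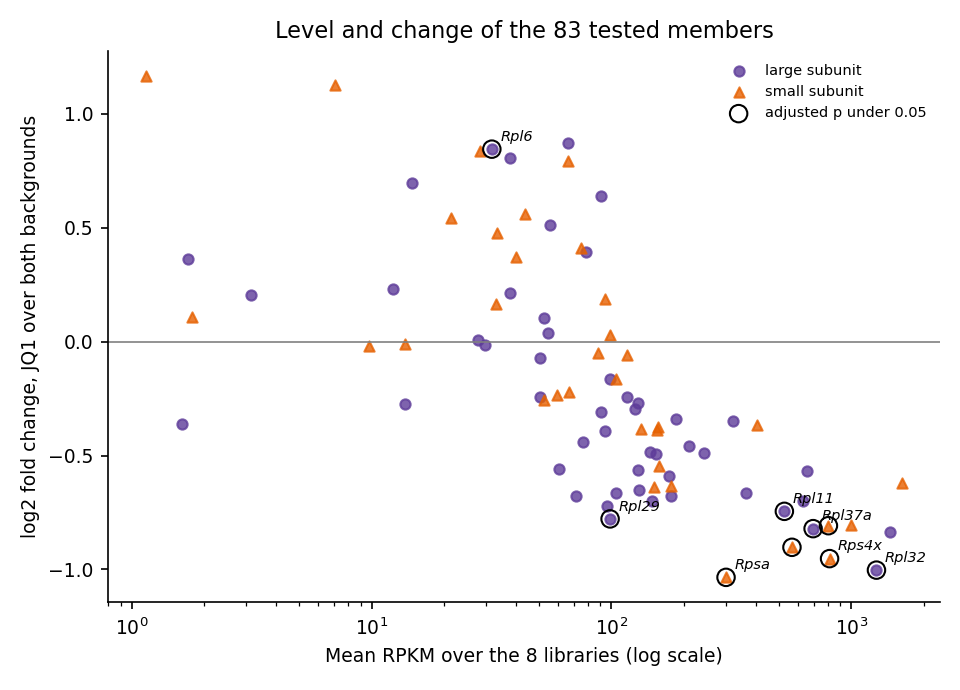
Log2 fold change for JQ1 over both backgrounds against mean RPKM (log axis) of the 83 tested members, large subunit as circles and small subunit as triangles, with the 9 called members ringed. The 21 highest members, from 174 RPKM upwards, all lie below 0, and the 41 members under 94.3 RPKM spread to both sides.

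Other protein-coding genes of the same level also had negative values. In the 21 highest members (174 to 1626 RPKM) the median log2 fold change was -0.68 and all 21 were negative. The 102 other protein-coding genes in that range had a median of -0.59, and 88 of them were negative. Between 95.4 and 157 RPKM, 20 members had a median of -0.44 and 140 other genes -0.55. Between 43.6 and 94.3 RPKM, 21 members had a median of -0.050 and 485 other genes -0.47. In the 21 lowest members (1.15 to 40.0 RPKM) the median was 0.23, with 16 positive, against 0.0073 in 8541 other genes. The members' median was thus lower than that of other genes in the highest range and higher in the 3 lower ranges. Other gene classes moved with JQ1 as well: 138 lincRNAs had a median of 0.72 and 268 processed pseudogenes a median of -0.62. In 21 tested -ps pseudogenes of ribosomal proteins the median was -0.55, with 2 called lower, beside 4.05% of all genes. The libraries with JQ1 were also those with more ribosomal RNA and fewer Col1a1 counts, and the part of these in the dependence on level was not tested.

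**Figure D4:**
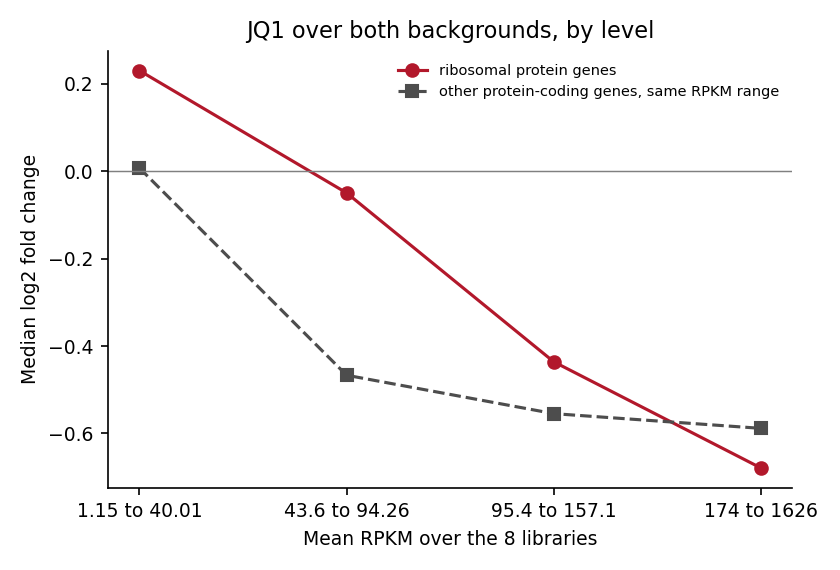
Median log2 fold change for JQ1 over both backgrounds in 4 ranges of mean RPKM, for ribosomal protein genes (20 or 21 a range) and for the other protein-coding genes of the same range (8541, 485, 140 and 102). Members have 0.23 in the lowest and -0.68 in the highest range, and the other genes 0.0073 and -0.59.

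Counts thereby shifted between members. Those below the median RPKM held 16.8% and 17.3% of member counts with the combination, 14.9% and 13.9% with JQ1, 10.1% and 9.73% with anti-PD-1, and 9.96% and 10.8% with vehicle. The 4 libraries with JQ1 were all above the 4 without. The summed CPM of the low members overlapped in all groups, with 1410 and 2103 with the combination, 1931 and 1539 with JQ1, 1561 and 1937 with anti-PD-1, and 1838 and 1419 with vehicle. The summed CPM of the high members was 6973 and 10068 with the combination, 11016 and 9502 with JQ1, 13850 and 17967 with anti-PD-1, and 16622 and 11737 with vehicle, and here the libraries with and without JQ1 did not overlap.

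The combination was compared with vehicle, with JQ1 alone and with anti-PD-1 alone. These comparisons share the combination libraries. Against vehicle, Rps4x alone of the 83 members was called, lower by a log2 fold change of -1.21 (SE 0.27, adjusted p = 0.0375 by edgeR), beside 2.36% of all genes called lower and 2.44% called higher. Without either vehicle library the value was -0.91 (replicate 1) or -1.46 (replicate 2), and it was no longer called. The call was also lost without either anti-PD-1 library or either combination library. Over all alternatives the value stayed between -1.46 and -0.91. With a term for sex it was -1.25 (adjusted p = 0.0606 by edgeR), and no member was called. Other members with small p were Rpl29 at -1.16 (SE 0.31, adjusted p = 0.0543 by edgeR) and Rpl32 at -1.27 (SE 0.34, adjusted p = 0.0565 by edgeR). The 2 combination libraries both lay below both vehicle libraries in 27 members and above them in 11, beside 29.1% and 29.5% of all genes. The median was -0.19 over the members, beside 0.067 over all genes. It was 0.082 without combination replicate 1, the shallowest library, and -0.53 without combination replicate 2.

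Against anti-PD-1 alone, 5 members fell and 0 rose, beside 2.08% of all genes called lower and 2.15% called higher. Among them were Rpsa at -1.42 (SE 0.32), Rpl29 at -1.33 (SE 0.31) and Rps4x at -1.32 (SE 0.27), with adjusted p from 0.0369 to 0.0447 by edgeR. With a term for sex 0 members were called, and these 3 had adjusted p from 0.0524 to 0.0549 by edgeR. The CPM of these 3 in every library are given above. Without regard to the test, 34 members lay lower in both combination libraries than in both anti-PD-1 libraries and 10 lay higher, beside 26.8% and 27.9% of all genes. All 42 members of high level had a negative value, with a median of -0.75, while the 41 of low level had a median of 0.077 with 26 positive, which was -0.15 without combination replicate 2 and 0.31 without combination replicate 1. The count was 5 without either JQ1 library, 2 without combination replicate 1 and 0 without any one of the other 5 libraries.

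Against JQ1 alone, edgeR called 0 members, with 4 at an unadjusted p under 0.05, beside 0.0142% of all genes called higher and 0.0071% called lower. DESeq2 and limma voom called 0 too, and edgeR without the filter on low counts called 1. Among these 4 were Rpl29 at -0.94 (SE 0.30), Rpl12 at -0.62 (SE 0.25) and Rps4x at -0.63 (SE 0.27) on the log2 scale. Rpl12, a protein of the stalk base, had 172 and 152 CPM with the combination and 245 and 253 CPM with JQ1. Both combination libraries lay below both JQ1 libraries in 13 members and above them in 3, beside 21.3% and 19.7% of all genes. The median over the members was -0.030, beside -0.0059 over all genes.

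JQ1 alone against vehicle gave 0 called members by edgeR, with 5 at an unadjusted p under 0.05 (3 higher, 2 lower), beside 0.0% of all genes called. DESeq2 and limma voom called 0 members. The smallest p belonged to Rpl11 at -0.81 (SE 0.27, adjusted p = 0.443 by edgeR) and Rps27l at 1.29 (SE 0.46, adjusted p = 0.447 by edgeR). Members of high level had a median of -0.42 (38 of 42 negative) and those of low level one of 0.28 (27 of 41 positive). With 1 library left out these ranged from -0.62 to -0.18 and from 0.048 to 0.47. The 2 JQ1 libraries lay below both vehicle libraries in 27 members and above them in 14, beside 22.9% and 26.3% of all genes. The median over all members was -0.23, beside 0.065 over all genes. It was 0.021 without vehicle replicate 1 and -0.39 without vehicle replicate 2.

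Anti-PD-1 alone against vehicle gave 0 called members by edgeR, with 0 at an unadjusted p under 0.05, beside 0.0% of all genes called. DESeq2 and limma voom called 0 members too. The smallest p belonged to Rps27, with a log2 fold change of 0.47 (SE 0.25, adjusted p = 1.0 by edgeR). Both anti-PD-1 libraries lay above both vehicle libraries in 9 members and below them in 4, beside 14.4% and 16.0% of all genes. The median over the members was 0.12, beside -0.0004 over all genes, and 60 of 83 were positive. It was -0.058 at the lowest and 0.35 at the highest when 1 library was left out. Members of high level had a median of 0.14 (37 of 42 positive) and those of low level one of 0.060 (23 of 41 positive). With 1 library left out these ranged from -0.062 to 0.42 and from -0.093 to 0.27. Spearman's rho between RPKM and this change was 0.23 over the members, beside -0.021 over protein-coding genes.

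**Figure D5:**
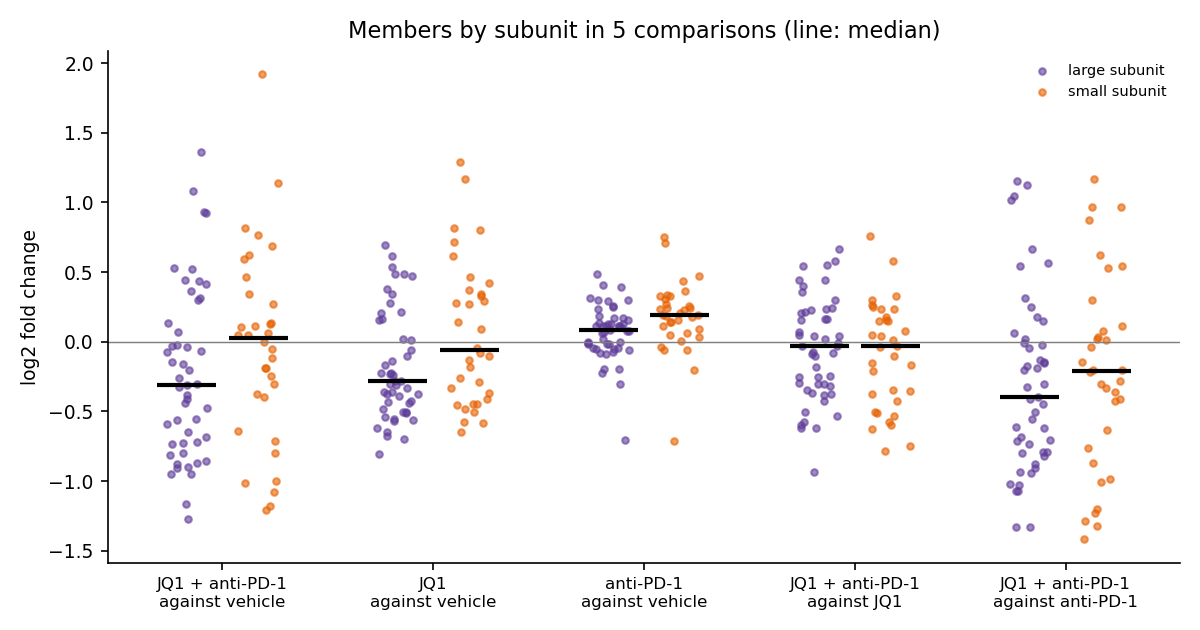
Log2 fold changes of the 49 large-subunit and 34 small-subunit tested members in 5 comparisons, with a line at each median. Values spread from below -1 to above 1 against vehicle or anti-PD-1 where the combination is tested, and lie mostly within 0.5 of 0 for anti-PD-1 against vehicle.

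The interaction asks whether the change with JQ1 differed between mice with and without anti-PD-1. edgeR called 0 members, with 2 at an unadjusted p under 0.05, of which Rpl29 was at -1.11 (SE 0.42, adjusted p = 0.745). DESeq2 and limma voom called 0 members, and 0.0% of all genes were called. The median over the members was -0.18, beside -0.014 over all genes, and without combination replicate 2 it was -0.54.

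Rpsa and Rpl11, called above, were among the members chosen for their known roles. Rps4x, called too, was chosen as a near copy of Rps4l. Others chosen for their known roles were not called. The stalk genes, whose proteins recruit the elongation factors, had log2 fold changes for JQ1 of -0.35 (SE 0.24) in Rplp0, -0.27 (SE 0.28) in Rplp1 and 0.10 (SE 0.22) in Rplp2. Rpl3, at the peptidyl transferase centre, was at -0.56 (SE 0.20, adjusted p = 0.0931 by edgeR). Rps3, at the mRNA entry, was at -0.64 (SE 0.22, adjusted p = 0.0851 by edgeR). Rps6, the substrate of the S6 kinases, was at 0.48 (SE 0.25, adjusted p = 0.215 by edgeR), with 23.6 and 49.9 CPM with the combination, 30.4 and 31.6 CPM with JQ1, 24.9 and 26.3 CPM with anti-PD-1, and 26.7 and 19.7 CPM with vehicle. None of these 6 members passed the test.

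Other genes of translation were taken as 3 lists. With JQ1 over both backgrounds, 4.05% of all genes tested fell and 4.22% rose, and their median log2 fold change was 0.060. Of 20 genes with a TOP start or a ribosomal fusion, 2 fell and 1 rose in this comparison, and the median was -0.55. Hnrnpa1, an RNA-binding protein, fell by 0.96 on the log2 scale (SE 0.19) and Pabpc1, the poly(A)-binding protein, by 0.89 (SE 0.22), while Tpt1, a small growth-related protein, rose by 0.95 (SE 0.21). Tpt1 averaged 339 ± 39.7 CPM with the combination, 180.2 ± 33.9 CPM with JQ1, 133 ± 7.54 CPM with anti-PD-1 and 124 ± 47.0 CPM with vehicle (SD, n = 2 each). Of 34 other initiation and release factors and regulators of TOP mRNAs, 7 fell and 0 rose: Eif4a2, Rps6kb1, Eif3c, Eif4g2, Mtor, Eif5a and Gspt1, with log2 fold changes of -1.03 to -0.68. Mtor, the kinase that sets TOP translation, averaged 70.9 ± 9.77 CPM with the combination, 68.1 ± 4.98 CPM with JQ1, 114 ± 10.7 CPM with anti-PD-1 and 110.1 ± 7.51 CPM with vehicle. In the combination against vehicle, 5 of these 34 fell, Eif4a1, Eif5a, Larp1, Eif4a2 and Gspt1, beside 2.36% of all genes. Larp1, the protein that binds the TOP tract, was at -1.12 (SE 0.27, adjusted p = 0.0462 by edgeR).

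Of 76 tested genes of the mitochondrial ribosome, 6 rose and 0 fell with JQ1 over both backgrounds, beside 4.22% and 4.05% of all genes. The median log2 fold change of the 76 was 0.70, with 67 positive. The 6 that rose were Mrps23 at 1.77 (SE 0.37), Mrps17 at 1.51 (SE 0.32), Mrps14 at 1.48 (SE 0.39), Mrpl19 at 1.34 (SE 0.36), Mrpl24 at 1.31 (SE 0.30) and Mrpl14 at 1.15 (SE 0.29). Their levels were low: Mrps23 averaged 6.32 ± 1.79 CPM with the combination, 3.09 ± 0.672 CPM with JQ1, 1.54 ± 0.604 CPM with anti-PD-1 and 1.10 ± 0.150 CPM with vehicle. The median was thus on the other side of 0 from that of the cytosolic members of high level, and on the same side as that of the cytosolic members of low level.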

How the data were processed

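Nodules of lung tumours were measured in 8 libraries, 2 per treatment. Per the labels' protocols, 50 ng of RNA from frozen tissue was captured with the TruSeq RNA Access kit. The submitters' processing notes name bcl2fastq, STAR, featureCounts and DESeq2 and the builds mm10 and GRCm38. No version, strand setting or rule for reads with several matches is named there. The authors deposited raw read counts for each symbol, in whole numbers, and these were used. Their normalized table, the same counts divided by 1 factor per library, was not used.

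Replicates were numbered in accession order. The labels do not say that the libraries of a group are separate animals. By Xist and Y-linked counts the combination, JQ1 and anti-PD-1 groups each hold a female and a male library, so these come from different animals. Spread within these groups thus includes a difference of sex. Both vehicle libraries are male, and their spread may be technical. A p-value here covers only how far these samples spread. The libraries differed beyond sampling noise (lowest chi-square per degree of freedom 17.7). The members, the lists and the named genes were chosen with earlier results of these data known. Named were the members called in each comparison (up to 8 a direction, filled to 4 by p), well-known subunits and near copies, the 5 highest and 5 lowest in RPKM, and up to 4 genes per list. Rps27l and Rps27 beside their CPM, and the called genes of the lists beyond 4, were chosen after their values were seen. A few members that the rule names, and their values, are not reported here. They remain in the counts and medians.

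Counts were tested with edgeR 4.0.16 (TMM, filterByExpr, robust glmQLFit, glmQLFTest) in R 4.3.3, in 1 fit of the 8 libraries with 4 residual degrees of freedom and a biological coefficient of variation of 0.332. P-values were adjusted over 14085 genes, with calls at 0.05. "Rose" and "fell" of a gene are used for calls. SE is that of the log2 fold change (prior count 0.125). CPM are scaled by total and TMM factor. RPKM divide CPM by the length of the principal transcript in GENCODE vM21. Floors take 3 counts and cover counting error only. On counts simulated for the combination against vehicle over 14085 genes, the fit recovered 47.5% of 200 genes changed 4-fold. These 200 were drawn from all genes tested, and changes as small as those of the called members were not simulated. The share recovered is thus not one for the members. Alternatives were RLE factors, no filter, a mean count of at least 50, a sex term, ribosomal RNA genes (358) removed, only the libraries compared, DESeq2 1.42.0, limma voom 3.58.1 and leaving out each library.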

Additional observations from a re-analysis of the deposited data

How the results depend on the processing

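No paired analysis was possible because the labels give no replicate numbers that groups share. The count of called members moved with the method, and the cause was not tested. In the combination against vehicle (1 called) it was 3 with RLE factors, 18 with no filter on low counts, 3 with a mean count of at least 50, 0 with a sex term, 0 with only the libraries compared, 11 with DESeq2 and 2 with limma voom, beside calls over all genes of 676 as reported, 732, 1992 (of 26426 tested), 793 (of 8576), 339, 245 (of 13009), 1632 and 684. In the combination against JQ1 (0 called) it was 1 with no filter. In the combination against anti-PD-1 (5 called) it was 22 with no filter, 0 with a sex term, 0 with only the libraries compared and 17 with DESeq2, beside 596 over all genes as reported, 1920, 212, 57 (of 12775) and 1537. For JQ1 over both backgrounds (9 called) it was 29 with no filter, 5 with a sex term and 24 with DESeq2, beside 1166 over all genes as reported, 2527, 877 and 2077. With DESeq2 4 were higher and 20 lower.

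Leaving out 1 library gave 0 to 3, 0 to 5 and 0 to 9 called members in the combination against vehicle, against anti-PD-1 and for JQ1 over both backgrounds, and 0 in the other comparisons. The median over the members ranged from -0.53 to 0.082 in the combination against vehicle, from -0.40 to 0.16 against JQ1, from -0.77 to -0.0090 against anti-PD-1, and from -0.54 to 0.093 in the interaction. No called member turned direction in any alternative. Of the 15 calls, 15 remained with DESeq2, 15 with ribosomal RNA genes removed, 14 with RLE factors, 14 with limma voom and 5 with a sex term. Each group has 2 libraries, and combination replicate 1 holds the fewest counts (2719816).

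Values near 0 for JQ1 over both backgrounds changed sign. Rpl22l1 (-0.013) was 0.11 with a mean count of at least 50, 0.024 with a sex term and 0.000416 with limma voom, and ranged from -0.12 to 0.072 when 1 library was left out. Rpl5 (0.039) was -0.0015 with RLE factors, -0.026 with no filter and -0.000714 with DESeq2, and ranged from -0.073 to 0.14. Rps4l (0.11) was -0.64 with limma voom and ranged from -1.30 to 0.74. The leave-one-out range was -0.071 to 0.48 for Rpl13a, -0.052 to 0.42 for Rpl22 and -0.097 to 0.26 for Rplp2.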
